A study of Homo sapiens with 6 samples.

Results

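The genes examined were 52 regulators of chromatin: subunits of the Polycomb repressive complexes PRC2 and PRC1, heterochromatin protein 1 (HP1), writers and erasers of histone methylation, DNA methyltransferases (DNMT), TET dioxygenases, histone deacetylases (HDAC), sirtuins, and bromodomain proteins with the acetyltransferases EP300 and CREBBP. They were chosen by name from the 57819 genes of the deposited table, all 52 were found, and all 52 passed the filter on low values (a mean of at least 10 normalized reads). RNA came from IMR90 ER:Ras cells, an established line of human lung fibroblasts in which 4-hydroxytamoxifen (4OHT) switches on Ras, an oncogene joined here to the hormone-binding part of the estrogen receptor. Both groups carried ER:Ras and received 200 nM 4OHT for 3 days, so that all libraries came from cells with Ras switched on and no library came from cells without it. The control group received a scrambled siRNA (siSCR). The knockdown group received siRNA against sin-lncRNA, a long noncoding RNA of senescent cells. Each group had 3 libraries. The comparison addressed what loss of sin-lncRNA changes in fibroblasts with Ras switched on. Whether these cells were senescent was not measured here. The labels number the replicates but do not say whether they came from separate cultures, so p-values measure the spread between these libraries, which may be technical. The knockdown siRNA is named with an ending in the value columns and without it in the sample descriptions. Labels do not say whether it was a single siRNA or several. Cells were a single line.

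Polycomb complexes silence developmental genes and cell cycle inhibitors. PRC2 places methyl groups on lysine 27 of histone H3 and PRC1, which binds that mark through its CBX subunits, ubiquitinates histone H2A. In fibroblasts, Polycomb proteins hold down the INK4A-ARF locus, and relief of this repression, in which the H3K27 demethylase KDM6B takes part, belongs to oncogene-induced senescence. Senescent fibroblasts with active Ras also gather heterochromatin marked by H3K9 methylation and bound by HP1. DNMT and TET enzymes add and remove DNA methylation, whose pattern is known to differ between cycling and senescent cells.

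Promoters of 48 of the 52 genes were found in a RefSeq promoter table (GRCh38.p14; 250 bases before to 50 after the start of transcription, 300 bases in each window). Polycomb and DNA methylation genes are known targets of E2F factors, the drivers of S phase entry, so these windows were searched on both strands for the E2F-type words TTTCCCGC, TTTCGCGC, TTTGCCGC and TTTGGCGC. At least 1 of these words stood in a window of 6 of the 48 genes (12.5%): CBX3, DNMT1, EZH1, EZH2, SIRT6 and SUZ12. Of all genes with a promoter listed, 3.99% held one, and of those that were also tested here, 6.54% did. These shares are per gene. The 48 genes had 80 windows, and a gene with several starts has more windows in which a word can stand. The 3 windows below are shown because each holds such a word, in capitals, while their genes had different outcomes in the knockdown: EZH1 was higher, EZH2 did not pass the test, and DNMT1 was lower. They are at chr17:42744991-42745290 (EZH1), chr7:148884242-148884541 (EZH2) and chr19:10194904-10195203 (DNMT1), all on the minus strand.
EZH1: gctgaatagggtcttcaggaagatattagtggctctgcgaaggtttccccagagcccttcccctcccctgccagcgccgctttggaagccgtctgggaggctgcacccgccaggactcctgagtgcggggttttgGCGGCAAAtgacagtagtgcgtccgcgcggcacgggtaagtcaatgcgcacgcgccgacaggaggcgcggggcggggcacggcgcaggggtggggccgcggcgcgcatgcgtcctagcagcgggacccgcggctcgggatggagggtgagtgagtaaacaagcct
EZH2: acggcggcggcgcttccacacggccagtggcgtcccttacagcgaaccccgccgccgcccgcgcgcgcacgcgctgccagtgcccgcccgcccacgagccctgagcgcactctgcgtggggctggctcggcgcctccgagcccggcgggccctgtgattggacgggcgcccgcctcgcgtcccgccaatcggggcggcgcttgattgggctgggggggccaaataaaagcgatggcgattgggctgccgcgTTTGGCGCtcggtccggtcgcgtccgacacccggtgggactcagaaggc
DNMT1: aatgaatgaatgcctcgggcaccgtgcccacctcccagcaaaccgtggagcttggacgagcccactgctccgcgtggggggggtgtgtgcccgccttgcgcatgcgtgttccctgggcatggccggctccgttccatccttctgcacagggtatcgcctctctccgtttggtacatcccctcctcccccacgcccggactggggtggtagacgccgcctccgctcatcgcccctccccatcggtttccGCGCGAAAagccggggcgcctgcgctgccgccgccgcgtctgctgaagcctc
A word was present in 1 of 20 genes that rose, 1 of 9 that fell and 4 of 19 that were not called, against 12 of 26 genes (46.2%) on a list of proliferation genes. CCAAT, the NF-Y word, stood in 39.6% of the 48 genes, 39.7% of all genes with promoters and 43.2% of the genes tested. GGGCGG, the SP1-type word, stood in 77.1% of the 48 genes, 48.3% of all genes with promoters and 76.3% of the genes tested. A match describes these letters and is not a binding site.

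The labels were checked first. The targeted sin-lncRNA (ENSG00000234693.1, chromosome 20, 49262008 to 49278812 on the plus strand, in the coordinates of the table) stood at 3.70, 4.73 and 4.09 RPM in control replicates 1, 2 and 3 and at 0.493, 0.640 and 0.534 RPM in knockdown replicates 1, 2 and 3. RPM are recovered reads scaled to the effective library size of the deposited values, without the offset of 0.5 reads that those values carry. All controls lay above all knockdowns (log2 fold change -2.86, SE 0.18; limma adjusted p = 7.9e-07; exact permutation p = 0.1, two-sided, the smallest for 3 against 3). Totals were 30271192 to 50913672 reads in controls and 22117324 to 27882280 in knockdowns, so depth and group cannot be told apart by the libraries themselves. The 10 fibroblast markers summed to 15667 to 16885 RPM in controls and 11355 to 11756 in knockdowns. Sums of the 4 epithelial markers were 0.352 to 0.533 against 0.314 to 0.463 RPM, with KRT5 at 0 in all libraries, and those of the 4 leukocyte markers stayed at or under 0.176 RPM, with at most 3 reads for any gene in a library. The 3 endothelial markers that were matched summed to 1.70 to 1.90 against 2.29 to 2.71 RPM. The fibroblast sum is weighted toward abundant genes, with up to 336716 reads for a gene in a library. In bulk RNA, these sums are scaled to all reads and cannot tell numbers of cells from RNA per cell.

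Of the 52 chromatin genes, 31 changed in the knockdown, 21 upward and 10 downward (59.6%; limma with Benjamini-Hochberg adjustment over the 19048 genes tested, adjusted p under 0.05). Of all genes tested, 41.0% changed, 17.5% upward and 23.5% downward, against 40.4% and 19.2% of the 52. As deposited, the 52 thus held a larger share of rises and a slightly smaller share of falls than the table as a whole. The shares were not tested, and they depended on the genes compared and on the processing. All 52 had a mean above 50 normalized reads. Among the 15115 genes with a mean of at least 50, 7328 changed, 3062 upward and 4266 downward. With a trend on transcript GC content and length removed within each library, 15 of the 52 and 4991 of 18546 genes fell. Groups did not overlap for 32 of the 52 genes (61.5%), while 51.1% of all genes tested had no overlap. Changes were modest: log2 fold changes ran from -0.60 (CBX6) to 0.85 (JARID2), and 0 of the 52 reached 1 in absolute value. The median was 0.05, against -0.04 for all genes, and the median absolute value 0.25 against 0.23. TET genes, the histone demethylases, the de novo DNA methyltransferases and JARID2 were on the upper side, and sirtuins, CBX6, CBX7 and CBX5 on the lower.

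**Figure D1:**
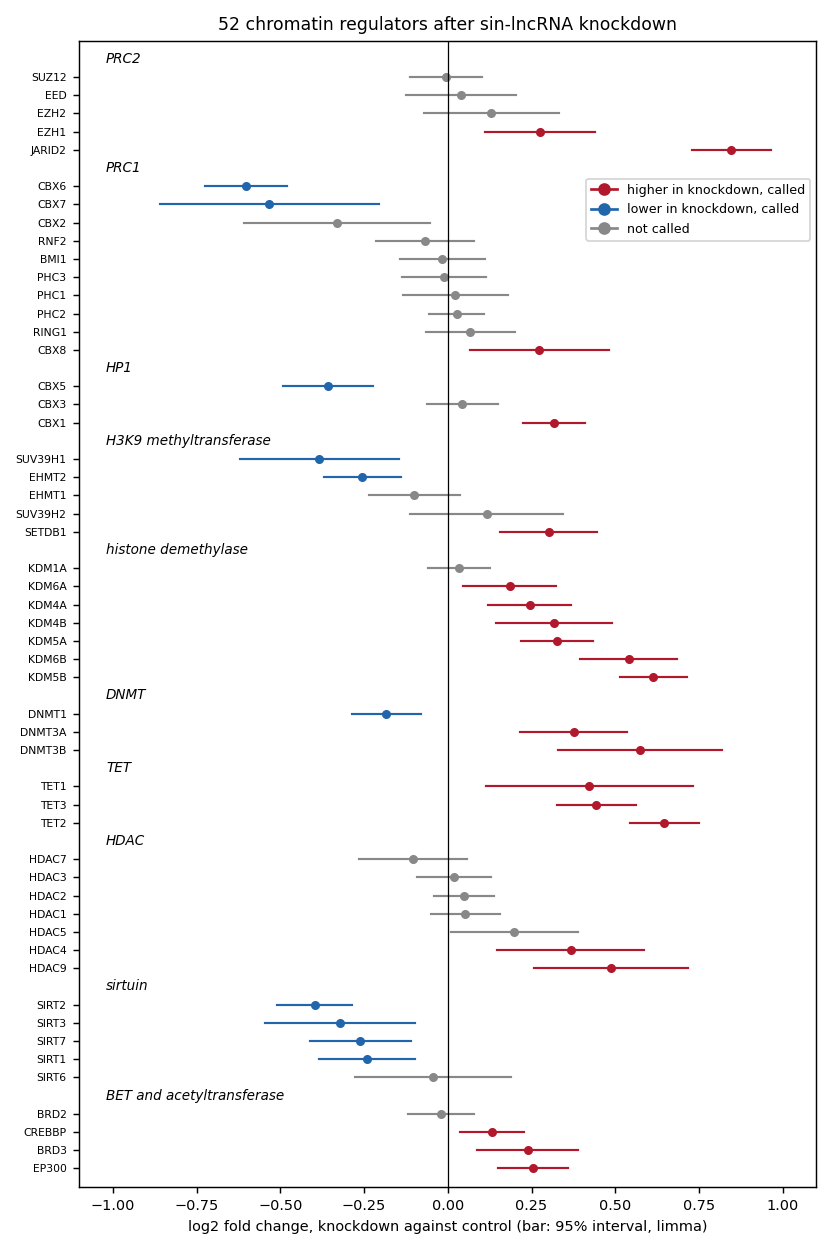
Log2 fold change of each of the 52 genes (horizontal axis, knockdown against control) with its 95% interval from limma, by role. Red points are the 21 genes that rose, blue points the 10 that fell and grey points the 21 that were not called; JARID2 lies farthest to the right at 0.85 and CBX6 farthest to the left at -0.60.

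In PRC2, JARID2 and EZH1 rose and the other 3 subunits were not called, with a median log2 fold change of 0.13 over the 5 genes. JARID2 (ENSG00000008083.9, chromosome 6, 15246527 to 15522252), the cofactor that guides PRC2 to its targets, stood at 28.3, 28.3 and 26.7 RPM in control replicates 1, 2 and 3 and at 48.3, 50.7 and 50.9 RPM in knockdown replicates 1, 2 and 3. Values are given in this replicate order from here on. All knockdowns were far above all controls, with a 1.80-fold rise (log2 fold change 0.85, SE 0.05, 95% interval 0.73 to 0.96; limma adjusted p = 9.4e-07).

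EZH1 (ENSG00000108799.8, chromosome 17, 40852293 to 40897071), the catalytic subunit of resting cells, stood at 19.0, 17.5 and 17.2 RPM in controls and 23.1, 19.9 and 22.0 in knockdowns. The groups did not overlap, and the rise was 1.21-fold (log2 fold change 0.27, SE 0.07; limma adjusted p = 0.0125). Without control replicate 3, the deepest library, EZH1 was no longer called (limma adjusted p = 0.0603). EZH2 (ENSG00000106462.6, chromosome 7, 148504475 to 148581413), the catalytic subunit of dividing cells, stood at 7.37, 7.83 and 8.31 RPM in controls and 9.28, 7.90 and 8.55 in knockdowns. Its groups overlapped, and the log2 fold change was 0.13 (95% interval -0.07 to 0.33; limma adjusted p = 0.287). Per kb of the longest transcript, EZH1 made up 64.3% ± 2.5 of the EZH1 and EZH2 level in controls and 66.6% ± 0.37 in knockdowns (SD, n = 3), so EZH1 was the more abundant of the pair in both groups. The scaffold subunits SUZ12 and EED, which the enzymes need for activity, had log2 fold changes of -0.01 (limma adjusted p = 0.945) and 0.04 (0.71). After removal of a trend on transcript GC content and length within each library, SUZ12 was called lower (log2 fold change -0.12; limma adjusted p = 0.0411).

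Accessory PRC2 genes were described from a list of 7 tested, of which 1 rose and 3 fell. MTF2, a Polycomb-like subunit that brings PRC2 to CpG islands, rose nearly as much as JARID2. It stood at 24.1, 24.4 and 23.4 RPM in controls and 41.5, 44.4 and 42.7 in knockdowns (log2 fold change 0.84, SE 0.05; limma adjusted p = 1.1e-06). RBBP7, a histone-binding subunit shared with deacetylase complexes, fell from 89.3 ± 2.08 to 61.9 ± 1.79 RPM (SD, n = 3; log2 fold change -0.53, limma adjusted p = 8.7e-06).

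Of the 10 PRC1 genes, CBX8 rose, CBX6 and CBX7 fell and 7 were not called. The calls were all in CBX subunits, the readers of H3K27 methylation. CBX6 (ENSG00000183741.7, chromosome 22, 39257455 to 39268319) stood at 235, 214 and 222 RPM in controls and 137, 156 and 150.1 in knockdowns. The groups lay far apart, and CBX6 fell to 0.66 of its control level (log2 fold change -0.60, SE 0.06; limma adjusted p = 1.3e-05), the lowest log2 fold change of the 52 genes.

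CBX7 (ENSG00000100307.8, chromosome 22, 39516172 to 39548679), known for repressing INK4A-ARF in fibroblasts, stood at 7.46, 5.09 and 5.09 RPM in controls and 3.77, 4.14 and 4.06 in knockdowns. Control replicate 1 stood above the other controls, and all knockdowns were below all controls (log2 fold change -0.53, SE 0.15; limma adjusted p = 0.0141). Without control replicate 1 the log2 fold change of CBX7 was -0.35 (limma adjusted p = 0.0352), and with eBayes without an intensity trend the adjusted p was 0.0501. In GENCODE 29, 17.9% of the exon bases of CBX7 are shared with a gene on the opposite strand. Among the deposited genes, 0 overlap CBX7 on that strand, so this sharing may not apply to the counting. The strand setting of the counting is not given in the sources used here.

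CBX8 (ENSG00000141570.6, chromosome 17, 77765931 to 77775482), which also binds INK4A-ARF, stood at 7.05, 6.09 and 6.95 RPM in controls and 7.57, 8.20 and 8.48 in knockdowns. The groups did not overlap (log2 fold change 0.27, SE 0.09; limma adjusted p = 0.038), but the call was lost in 7 of 20 other settings, among them without control replicate 2 or 3 or knockdown replicate 2 or 3, with adjusted p up to 0.134. Its neighbour CBX2 (ENSG00000173894.6, chromosome 17, 77751931 to 77761782) stood at 7.28, 6.19 and 5.82 RPM in controls and 5.83, 4.44 and 5.06 in knockdowns. Knockdown replicate 1 lay just inside the control range, and the fit gave a log2 fold change of -0.33 (95% interval -0.61 to -0.05; limma adjusted p = 0.0554). Without knockdown replicate 1, CBX2 was called lower (log2 fold change -0.43; limma adjusted p = 0.0254). Among CBX2, CBX6, CBX7 and CBX8 on the per-kb scale, CBX6 held 88.9% ± 0.79 in controls and 85.1% ± 0.89 in knockdowns (SD, n = 3). CBX8 went from 4.29% ± 0.21 to 7.53% ± 0.22 of that sum, with no overlap between the groups for either gene.

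The core of PRC1 was not called. BMI1, the PCGF subunit whose loss drives fibroblasts into senescence, had a log2 fold change of -0.02 (95% interval -0.14 to 0.11), and the ubiquitin ligases RING1 and RNF2 had 0.07 and -0.07. The Polyhomeotic subunits PHC1, PHC2 and PHC3 had 0.02, 0.03 and -0.01. After the GC and length correction RING1 (0.22) and PHC2 (0.10) were called higher and RNF2 (-0.16) and PHC3 (-0.20) lower. Among the 17 other PRC1 and PR-DUB genes tested, 4 rose and 2 fell. ASXL3, of the PR-DUB complex that removes ubiquitin from H2A, rose from 4.28 ± 0.58 to 8.17 ± 0.39 RPM (log2 fold change 0.94; limma adjusted p = 8.4e-05). L3MBTL2, of a noncanonical PRC1, fell from 32.3 ± 1.01 to 22.7 ± 1.05 RPM (log2 fold change -0.51; limma adjusted p = 6.7e-05).

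The 3 HP1 genes, whose proteins bind methylated H3K9, went in different directions. CBX1 (HP1 beta; ENSG00000108468.10, chromosome 17, 46147414 to 46178883) stood at 69.8, 71.1 and 70.8 RPM in controls and 87.4, 88.8 and 87.7 in knockdowns. It rose 1.25-fold with little spread in either group (log2 fold change 0.32, SE 0.04; limma adjusted p = 0.000157). CBX5 (HP1 alpha; ENSG00000094916.9, chromosome 12, 54624724 to 54673886) stood at 184, 199.9 and 184 RPM in controls and 160.5, 136 and 147 in knockdowns. It fell to 0.78 of control, with no overlap (log2 fold change -0.36, SE 0.06; limma adjusted p = 0.000893). CBX3 (HP1 gamma), which is also found on transcribed genes, was not called, at 0.04 (95% interval -0.06 to 0.15). On the per-kb scale the CBX1 share of the HP1 sum was 27.3% ± 0.57 in controls and 32.4% ± 1.14 in knockdowns, and the CBX5 share 15.4% ± 0.48 and 11.4% ± 0.64 (SD, n = 3). CBX3 held 57.3% and 56.2% on this scale. Per kb of all exon bases it held 44.2% in controls and 43.0% in knockdowns, and there CBX1 exceeded CBX3 in knockdown replicate 2 (43.6% against 42.7%) and knockdown replicate 3 (42.7% against 42.5%).

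**Figure D2:**
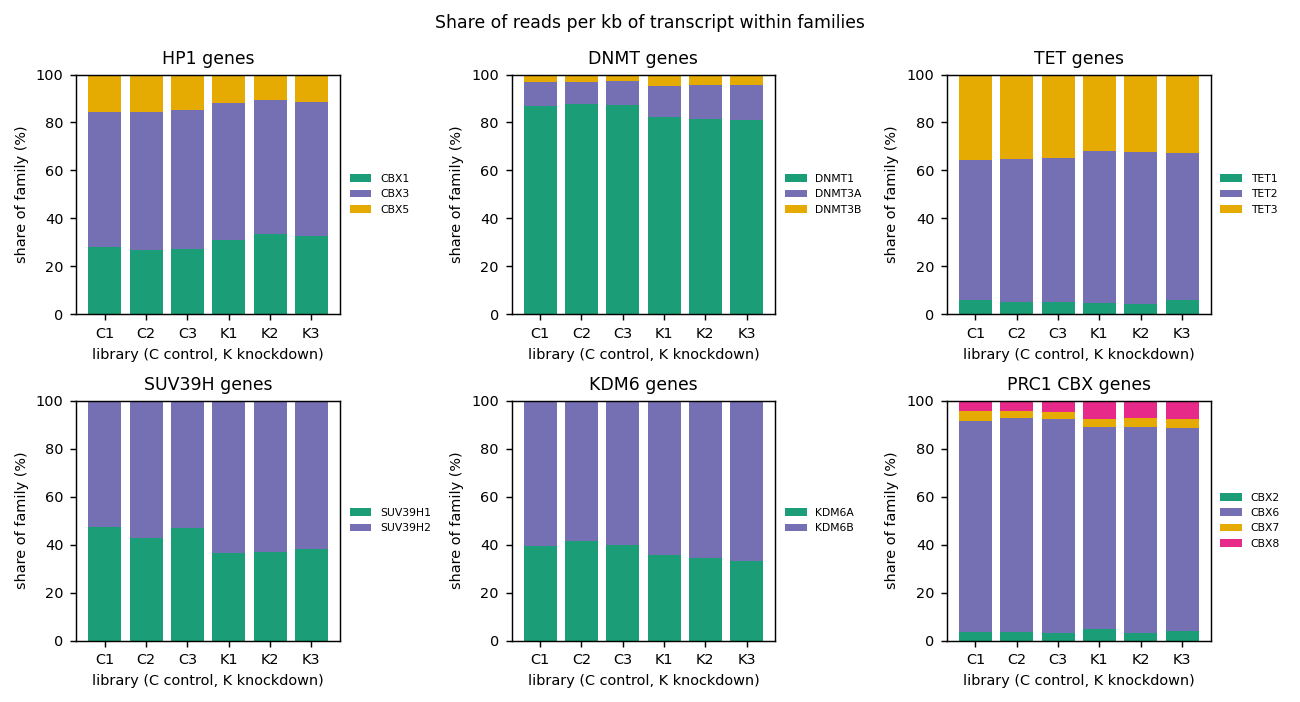
Share of each gene in the summed level of its family, in percent of reads per kb of the longest transcript (vertical axis), in control (C1 to C3) and knockdown (K1 to K3) libraries. CBX1 and CBX8 take a larger share in every knockdown library than in any control, and CBX5, DNMT1 and SUV39H1 a smaller one.

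Of the 5 H3K9 methyltransferases, SETDB1 rose and SUV39H1 and EHMT2 fell. SUV39H1 (ENSG00000101945.12, chromosome X, 48553945 to 48567403), which places the trimethyl mark bound by HP1, stood at 6.02, 6.39 and 6.83 RPM in controls and 4.66, 4.57 and 5.52 in knockdowns. The groups did not overlap (log2 fold change -0.38, SE 0.11; limma adjusted p = 0.0147), but the call was lost without control replicate 3 (limma adjusted p = 0.0754) or without knockdown replicate 2. On the opposite strand another gene shares 20.3% of its exon bases. Its homologue SUV39H2 was not called, at 0.12 (95% interval -0.11 to 0.34), and the SUV39H1 share of the pair on the per-kb scale was 45.7% ± 2.57 in controls and 37.2% ± 0.91 in knockdowns.

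SETDB1 (ENSG00000143379.8, chromosome 1, 150898739 to 150937213), the enzyme that silences retroelements with TRIM28, stood at 20.4, 20.1 and 19.8 RPM in controls and 25.6, 22.8 and 25.8 in knockdowns, with all knockdowns higher (log2 fold change 0.30, SE 0.07; limma adjusted p = 0.0038). A gene on the opposite strand shares 13.4% of the exon bases of SETDB1. EHMT2 (G9a; ENSG00000204371.7, chromosome 6, 31847536 to 31865464), which dimethylates H3K9 in euchromatin, stood at 49.9, 47.5 and 47.8 RPM in controls and 39.0, 40.6 and 42.1 in knockdowns, with all knockdowns lower (log2 fold change -0.26, SE 0.05; limma adjusted p = 0.00258). Its partner EHMT1 had -0.10 (limma adjusted p = 0.222), and -0.16 after the GC and length correction, which called it lower (limma adjusted p = 0.0462).

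The histone demethylases were the group with the most rises: 6 of 7 were higher, 0 lower, and the median log2 fold change was 0.32. KDM5B (ENSG00000117139.12, chromosome 1, 202696526 to 202778598), which removes H3K4 methylation and acts with RB at E2F targets in senescent cells, stood at 125, 133 and 125 RPM in controls and 200.4, 188 and 197 in knockdowns. The groups lay far apart, a 1.53-fold rise (log2 fold change 0.61, SE 0.04; limma adjusted p = 2.6e-06). KDM6B (JMJD3; ENSG00000132510.6, chromosome 17, 7743222 to 7758114), which removes the Polycomb mark from H3K27, stood at 40.9, 35.0 and 36.9 RPM in controls and 51.8, 56.9 and 55.0 in knockdowns. It rose 1.45-fold with no overlap (log2 fold change 0.54, SE 0.07; limma adjusted p = 9e-05). KDM5A (ENSG00000073614.7, chromosome 12, 389295 to 498620), an RB-binding H3K4 demethylase, stood at 81.1, 84.2 and 79.6 RPM in controls and 107, 97.9 and 102 in knockdowns. All its knockdown values were higher (log2 fold change 0.33, SE 0.05; limma adjusted p = 0.000382), and the GC and length correction left 0.18.

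KDM6A, the X-linked H3K27 demethylase, rose by the least of the 6 (log2 fold change 0.18, SE 0.06; limma adjusted p = 0.0356). That call was lost in 9 of 20 other settings, among them without control replicate 2 or 3 or knockdown replicate 1 or 2, and the GC and length correction (log2 fold change 0.08, limma adjusted p = 0.344). KDM6B made up 59.7% ± 1.11 of the KDM6 pair in controls and 65.4% ± 1.22 in knockdowns (per kb; SD, n = 3), without overlap. The H3K9 and H3K36 demethylases KDM4A and KDM4B rose with log2 fold changes of 0.24 (limma adjusted p = 0.00533) and 0.32 (0.00815); KDM4A shares 40.2% of its exon bases with another gene on its own strand. KDM1A (LSD1), a flavin-dependent enzyme of the CoREST complex, was not called at 0.03 (95% interval -0.06 to 0.13). Of 11 other lysine demethylase genes tested, 6 rose and 1 fell. KDM3A, an H3K9 demethylase induced by hypoxia, rose from 32.8 ± 0.81 to 50.6 ± 2.44 RPM (log2 fold change 0.63; limma adjusted p = 8.8e-06). KDM1B, the other flavin-dependent enzyme, fell from 21.7 ± 0.82 to 17.4 ± 0.93 RPM (-0.32; limma adjusted p = 0.00277).

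All 3 DNA methyltransferases changed, in different directions. DNMT1 (ENSG00000130816.10, chromosome 19, 10244021 to 10341962), which copies methylation onto newly made DNA, stood at 94.3, 100.1 and 101 RPM in controls and 84.4, 86.7 and 89.1 in knockdowns. The groups did not overlap, and DNMT1 fell to 0.88 of control (log2 fold change -0.18, SE 0.05; limma adjusted p = 0.00925), a call lost without control replicate 3 (limma adjusted p = 0.0547). The de novo enzymes rose. DNMT3A (ENSG00000119772.12, chromosome 2, 25455845 to 25565459) stood at 19.6, 18.8 and 20.5 RPM in controls and 23.4, 25.7 and 27.6 in knockdowns (log2 fold change 0.38, SE 0.07; limma adjusted p = 0.00182). DNMT3B (ENSG00000088305.14, chromosome 20, 31350191 to 31397162) stood at 2.58, 2.70 and 2.66 RPM in controls and 3.99, 3.88 and 3.95 in knockdowns (log2 fold change 0.57, SE 0.11; limma adjusted p = 0.00187). Both were higher in every knockdown library than in any control, DNMT3B on as few as 81 reads in a library. On the per-kb scale DNMT1 took 87.2% ± 0.45 of the family in controls and 81.7% ± 0.50 in knockdowns (SD, n = 3), DNMT3A 9.90% and 13.7%, and DNMT3B 2.92% and 4.64%.

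The 3 TET genes, whose enzymes oxidize 5-methylcytosine as the first step of its removal, all rose, with a median log2 fold change of 0.44. TET2 (ENSG00000168769.8, chromosome 4, 106067032 to 106200973) stood at 40.9, 40.7 and 40.5 RPM in controls and 65.1, 63.8 and 62.2 in knockdowns. Its groups were tight and far apart, a 1.56-fold rise (log2 fold change 0.65, SE 0.05; limma adjusted p = 2.3e-06). TET3 (ENSG00000187605.11, chromosome 2, 74229840 to 74335303) stood at 27.9, 26.8 and 26.2 RPM in controls and 36.6, 36.2 and 37.1 in knockdowns, also without overlap (log2 fold change 0.44, SE 0.05; limma adjusted p = 7.9e-05). TET1 (ENSG00000138336.8, chromosome 10, 70320413 to 70454239), the scarce member, stood at 3.79, 3.26 and 3.08 RPM in controls and 4.44, 3.88 and 5.31 in knockdowns. Its knockdown values were all higher but spread widely (log2 fold change 0.42, SE 0.14; limma adjusted p = 0.0322). The TET1 call was lost in 7 of 20 other settings, including without control replicate 2 or 3 or knockdown replicate 1 or 3, and the GC and length correction (log2 fold change 0.27; limma adjusted p = 0.13).

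Of 19 other heterochromatin and DNA methylation genes tested, 6 rose and 4 fell. TDG, the glycosylase that excises the bases TET enzymes make, rose from 25.5 ± 1.13 to 52.5 ± 1.51 RPM (SD, n = 3; log2 fold change 1.04, limma adjusted p = 3.4e-07). UHRF1, which recruits DNMT1 to replicating DNA, fell from 34.2 ± 1.21 to 28.2 ± 1.51 RPM (log2 fold change -0.28; limma adjusted p = 0.00375). Like DNMT1 and SUV39H1, UHRF1 is known to be more abundant in cycling cells. EZH2, the catalytic subunit of dividing cells, was not called (log2 fold change 0.13). Of the homologues, SUV39H2 was not called (0.12) and DNMT3B rose (0.57). The 32 proliferation genes summed to 488 to 599 RPM in controls and 391 to 443 in knockdowns. Of the 31 tested, 22 fell and 1 rose, with a median log2 fold change of -0.51. The cell cycle factor E2F1 fell from 8.99 ± 0.70 to 4.23 ± 0.03 RPM, and the 1 that rose was TYMS, the thymidylate synthase. The part of proliferation in the falls of DNMT1, SUV39H1 and UHRF1 was not tested.

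**Figure D3:**
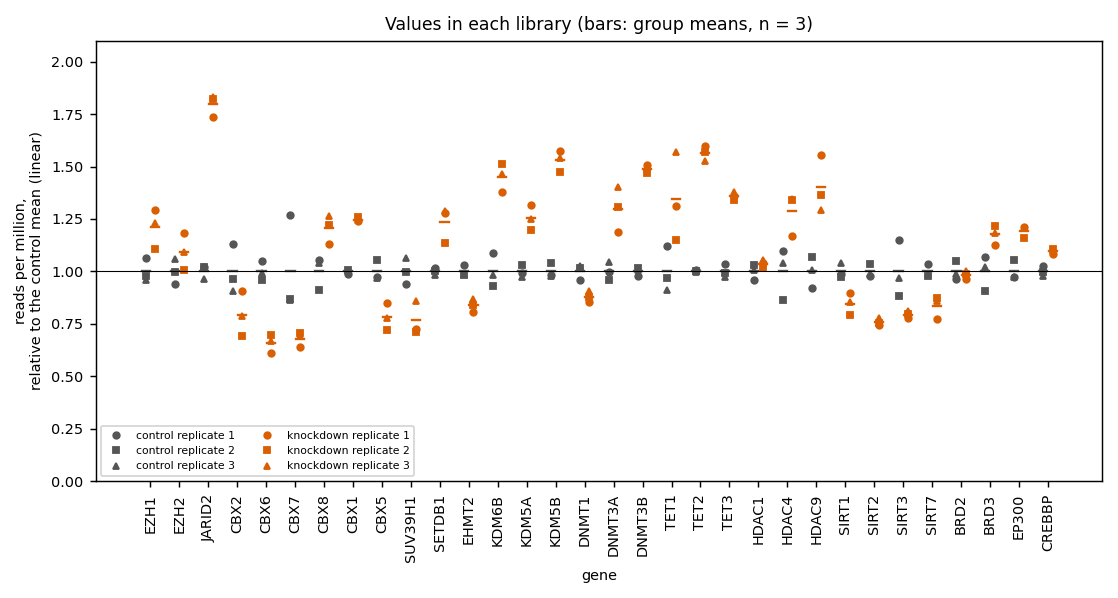
RPM in each library relative to the control mean of the gene (vertical axis, linear, starting at 0) for 32 of the 52 genes, those whose values in each library are given in the text. Grey symbols are controls, orange symbols knockdowns and short bars group means (n = 3); TET2, KDM5B and JARID2 knockdowns stand clear above the controls, and CBX6 and SIRT2 knockdowns clear below.

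Among the 7 HDAC genes, HDAC4 and HDAC9 rose, 0 fell and 5 were not called. Both are class IIa deacetylases, which shuttle between nucleus and cytoplasm and repress MEF2 factors. HDAC9 (ENSG00000048052.17, chromosome 7, 18126572 to 19042039) stood at 4.99, 5.79 and 5.44 RPM in controls and 8.43, 7.39 and 6.98 in knockdowns, without overlap (log2 fold change 0.49, SE 0.10; limma adjusted p = 0.00341). HDAC4 (ENSG00000068024.12, chromosome 2, 239969864 to 240323348) stood at 12.9, 10.1 and 12.2 RPM in controls and 13.8, 15.8 and 15.8 in knockdowns, where the groups were close but apart (log2 fold change 0.37, SE 0.10; limma adjusted p = 0.0125). The HDAC4 call was lost without knockdown replicate 3 or with eBayes without a trend, with adjusted p up to 0.056. The other class IIa genes HDAC5 and HDAC7 had log2 fold changes of 0.20 (limma adjusted p = 0.0896) and -0.10 (0.287). HDAC5 was called higher without control replicate 1 (log2 fold change 0.29; limma adjusted p = 0.00859), with quantile normalization and after the GC and length correction.

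HDAC1 (ENSG00000116478.7, chromosome 1, 32757687 to 32799236), a catalytic subunit of the NuRD, SIN3 and CoREST complexes, stood at 74.9, 80.5 and 78.4 RPM in controls and 81.2, 79.1 and 82.1 in knockdowns. Its groups overlapped, with a log2 fold change of 0.05 (95% interval -0.05 to 0.15; limma adjusted p = 0.398). HDAC2, its close homologue, had 0.05; its knockdown libraries were all above the controls, but it did not pass the test (limma adjusted p = 0.379), and it was called lower after the GC and length correction (log2 fold change -0.12; limma adjusted p = 0.0374). HDAC3, of the NCOR complexes, had 0.02 (limma adjusted p = 0.809). Among 23 other deacetylases and complex subunits tested, 6 rose and 4 fell. HDAC8 rose from 16.7 ± 1.34 to 20.6 ± 0.55 RPM (log2 fold change 0.31; limma adjusted p = 0.00566). SAP30, a SIN3 subunit, fell from 7.94 ± 0.48 to 6.25 ± 0.27 RPM (-0.34; limma adjusted p = 0.0106), a call lost without control replicate 3 (limma adjusted p = 0.0608).

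The sirtuins, NAD-dependent deacylases, were lower in 4 of 5 genes and higher in 0, with a median log2 fold change of -0.26. Without control replicate 3, 2 of the 5 were called lower, since SIRT1 and SIRT3 were lost together. SIRT2 (ENSG00000068903.15, chromosome 19, 39369197 to 39390502), mainly a cytoplasmic tubulin deacetylase, stood at 46.2, 49.0 and 46.7 RPM in controls and 35.3, 35.6 and 36.7 in knockdowns. It fell to 0.76 of control, with the groups far apart (log2 fold change -0.40, SE 0.05; limma adjusted p = 0.000124). SIRT7 (ENSG00000187531.9, chromosome 17, 79869815 to 79879199), the nucleolar member, stood at 20.4, 19.3 and 19.5 RPM in controls and 15.3, 17.2 and 17.0 in knockdowns, without overlap (log2 fold change -0.26, SE 0.07; limma adjusted p = 0.0108).

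SIRT1 (ENSG00000096717.7, chromosome 10, 69644427 to 69678147), which deacetylates p53 and histones, stood at 25.3, 24.9 and 26.7 RPM in controls and 22.9, 20.2 and 21.8 in knockdowns. All knockdowns were lower (log2 fold change -0.24, SE 0.07; limma adjusted p = 0.0125), and the call was lost without control replicate 3 (limma adjusted p = 0.0673). SIRT3 (ENSG00000142082.10, chromosome 11, 215458 to 236931), the main mitochondrial deacetylase, stood at 11.3, 8.69 and 9.56 RPM in controls and 7.66, 7.85 and 7.98 in knockdowns. Its controls spread more than its knockdowns (log2 fold change -0.32, SE 0.10; limma adjusted p = 0.0261), and the call was lost in 8 of 20 other settings, among them without any single library other than control replicate 2. SIRT6, a chromatin-bound H3K9 deacetylase, was not called at -0.04 (95% interval -0.28 to 0.19), and was 0.16 after the GC and length correction, still not called.

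In the last group, the acetyltransferases EP300 and CREBBP and the bromodomain protein BRD3 rose and BRD2 was not called. Without control replicate 2, knockdown replicate 2 or knockdown replicate 3, EP300 was the 1 gene of the 4 still called. EP300 (ENSG00000100393.9, chromosome 22, 41487790 to 41576081), which writes H3K27 acetylation at enhancers, stood at 107, 116 and 107 RPM in controls and 133, 127 and 133 in knockdowns (log2 fold change 0.25, SE 0.05; limma adjusted p = 0.00144). Its paralogue CREBBP (ENSG00000005339.8, chromosome 16, 3775055 to 3930727) stood at 83.8, 81.7 and 79.9 RPM in controls and 88.5, 90.7 and 89.6 in knockdowns (log2 fold change 0.13, SE 0.04; limma adjusted p = 0.0307). Neither gene had overlapping groups. The CREBBP call was lost in 8 of 20 other settings, and after the GC and length correction EP300 was at 0.16 (called) and CREBBP at 0.08 (not called).

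BRD3 (ENSG00000169925.12, chromosome 9, 136895427 to 136933657), a BET reader of acetylated histones, stood at 30.9, 26.2 and 29.5 RPM in controls and 32.6, 35.2 and 34.2 in knockdowns, close but apart (log2 fold change 0.24, SE 0.07; limma adjusted p = 0.0171). Its call was lost in 5 of 20 other settings, with adjusted p up to 0.0614, and 18.6% of its exon bases are shared with a gene on the opposite strand. BRD2 (ENSG00000204256.8, chromosome 6, 32936437 to 32949282), the BET protein tied to E2F targets, stood at 175, 190.4 and 179 RPM in controls and 175, 179 and 182 in knockdowns. Its groups overlapped, with a log2 fold change of -0.02 (95% interval -0.12 to 0.08; limma adjusted p = 0.744). Among 11 other BET and acetyltransferase genes tested, 5 rose and 1 fell. KAT8, which acetylates H4K16, rose from 12.1 ± 0.54 to 19.5 ± 0.63 RPM (log2 fold change 0.69; limma adjusted p = 1.9e-05). HAT1, which acetylates new histone H4, was the 1 that fell, from 39.5 ± 3.82 to 34.3 ± 1.69 RPM with overlapping groups (-0.20; limma adjusted p = 0.0496), a call lost in 13 of 20 other settings.

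Methyltransferases for other histone lysines (H3K4, H3K36, H3K79 and H4K20) were described from a list of 18 tested, of which 8 rose and 2 fell. KMT5B, an H4K20 methyltransferase, rose from 31.9 ± 0.42 to 43.4 ± 1.67 RPM (log2 fold change 0.44; limma adjusted p = 7.1e-05). DOT1L, the H3K79 methyltransferase, fell from 64.0 ± 6.50 to 51.8 ± 6.81 RPM with overlapping groups (-0.31; limma adjusted p = 0.0242), a call lost in 7 of 20 other settings. Over the 7 lists of other chromatin genes together, 53 of 106 tested changed, 36 upward and 17 downward, with a median log2 fold change of 0.07. Without control replicate 3 the falls numbered 10, and without knockdown replicate 3 they numbered 11. After the GC and length correction the split was 30 upward and 27 downward. Beside these counts and those of each list, 41.0% of all genes tested changed, 17.5% upward and 23.5% downward. Among the 15115 genes with a mean of at least 50 normalized reads, 7328 changed, 3062 upward and 4266 downward. Differences from these shares were not tested.

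Across the 52 genes, levels per kb of the longest transcript in controls ran from 0.364 RPM per kb (TET1) through 0.557 (HDAC9) and 0.611 (DNMT3B) to 61.1 (CBX3) and 71.6 (PHC2). The order of the scarcest depended on the length used: per kb of all exon bases HDAC9, at 0.322, lay below TET1, at 0.364. Transcript length and base composition are given for genes that rose and genes that fell. The 21 that rose had a median transcript of 6713 nt with 50.9% GC, and the 10 that fell had 4111.5 nt and 57.9% GC. Over all genes called the medians lay in the same order: 4332.5 nt and 44.7% GC for those that rose, 2734.5 nt and 50.9% GC for those that fell. With the trend on both removed within each library, 21 of the 52 were higher and 15 lower, against 21 and 10 as deposited. KDM6A, TET1 and CREBBP kept their direction but were no longer called. RING1, PHC2 and HDAC5 were called higher, and SUZ12, RNF2, PHC3, EHMT1 and HDAC2 were called lower. JARID2, CBX6, TET2 and KDM5B kept both direction and call in all 20 other settings, as did 14 more of the 31.

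**Figure D4:**
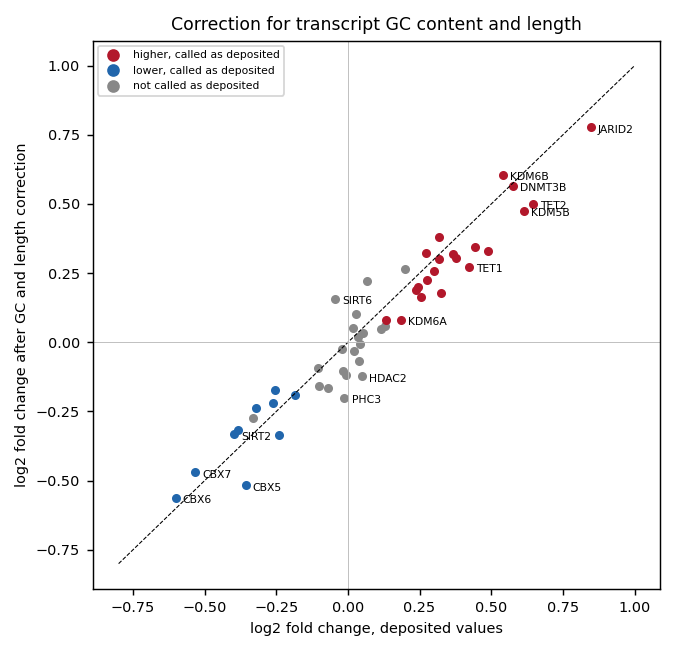
Log2 fold change of the 52 genes as deposited (horizontal axis) and after removal of the trend on transcript GC content and length (vertical axis); the dashed line marks equal values. JARID2, CBX6 and CBX7 stay near the line, while TET1 and KDM6A move toward 0 and HDAC2 and SIRT6 change sign.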

How the data were processed

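PolyA RNA of 6 libraries was sequenced as single 50 bp reads. The submitters' processing notes name Bowtie2, featureCounts and hg19; versions, annotation release and strand setting are not given in the sources used here. The authors deposited log2 values of reads plus 0.5, scaled to an effective library size. As a factor of total reads, that size was 0.989 to 0.9995 in controls and 1.004 to 1.009 in knockdowns. Whole reads were recovered for all values (tolerance 0.01 reads). Columns were matched to samples by replicate number and siRNA name; the ending on the knockdown siRNA name is not explained in the labels.

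The deposited log2 values were fitted in limma 3.58.1 (R 4.3.3; lmFit, eBayes with an intensity trend, group as sole term, two-sided) for the 19048 genes with a mean of at least 10 normalized reads. Benjamini-Hochberg adjustment ran over all of these genes, with calls at an adjusted p under 0.05. Fold changes carry the offset of 0.5 reads and understate the change of scarce genes. The limit set by a count of 0 is 3 reads (0.0596 to 0.134 RPM by library), for counting error only. Replicates of a group differed by more than sampling noise (chi-square per degree of freedom 2.69 to 10.1), so each library counted once.

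The 52 genes and all lists were chosen with earlier results of these data known. Values in each library are given for up to 3 called genes per role with the largest absolute change and for 10 others set by name; from each list of other genes, the largest called rise and fall with a mean of at least 50 normalized reads are named. Of 110 other chromatin genes, 109 were found and 106 tested. Coordinates are those of the table. Transcript length and GC content came from GENCODE 29 by gene ID, promoters from RefSeq by symbol (both GRCh38); none were converted. SIRT7, HDAC5, CBX8 and CBX2 had no promoter entry. The 20 other settings covered the pseudocount (0.1, 1 and 5 RPM), filter, scaling and variance model. They also covered thinning to the smallest total, GC and length, a replicate block and each library left out.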

Additional observations from a re-analysis of the deposited data

How the results depend on the processing

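Of the 31 calls, 18 held in all 20 other settings (13 upward, 5 downward), 13 were lost in at least 1, and 0 reversed; 9 genes not called were called in at least 1. The number called ran from 22 to 36, and from 22 to 31 with a library left out. Rises numbered 15 to 22 and falls 6 to 15; without control replicate 3, the deepest library, 16 rose and 6 fell, against 21 and 10. Over all genes 5803 to 8224 were called, and over the other chromatin genes 36 to 57 (36 to 48 with a library left out; lowest without control replicate 3, where falls went from 17 to 10). Library totals, thinning and quantile normalization moved the median log2 fold change of the 52 genes from 0.05 to 0.069, 0.073 and 0.080, and leaving out a library gave 0.036 to 0.065. A pseudocount of 5 RPM shrank the log2 fold change of scarce genes in absolute value by construction. It became 0.23 for DNMT3B, 0.19 for TET1, -0.27 for CBX7 and -0.72 for sin-lncRNA.

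Genes not called that changed sign were SUZ12 (trimmed-mean scaling 0.0034, library totals 0.014, quantile 0.041; a library left out, -0.031 to 0.0099), BMI1 (library totals 0.0033, quantile 0.037; -0.031 to 0.010) and PHC3 (0.0071, 0.033; -0.063 to 0.017). After the GC and length correction EED was -0.067, PHC1 -0.030, CBX3 -0.0063, HDAC2 -0.12 and SIRT6 0.16. With a library left out EED ran from -0.011 to 0.065, PHC1 from -0.031 to 0.079, HDAC3 from -0.014 to 0.046, SIRT6 from -0.12 to 0.068 and BRD2 from -0.047 to 0.015. The cause was not tested.

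The labels used here do not say whether equal replicate numbers mark paired libraries. Sample descriptions number control replicates 1, 2 and 3 as libraries 1, 3 and 5, and the knockdown replicates as 2, 4 and 6. Correlations of deviations cannot settle the pairing, since each group of 3 libraries is centred on its own mean. For equal replicate numbers the deviations correlated at -0.149, -0.183 and 0.0655. For unequal numbers the correlations ran from -0.0758 to 0.204. The highest were control replicate 2 with knockdown replicate 1 (0.204) and control replicate 1 with knockdown replicate 2 (0.169). A block for such crossed pairs was not fitted. With the replicate number as a block, 26 of the 52 genes were called, 16 upward and 10 downward; CBX8, KDM6A, TET1, SIRT3, BRD3 and CREBBP were not called and CBX2 was (limma adjusted p = 0.0452). Depth limits the scarcest genes, with 81 reads at the lowest.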

Other observations

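Several of the 52 genes have pseudogene copies, found here by name alone, that had reads of their own. Sequences of genes and copies were not compared. PHC1P1 had a mean of 838 reads over the 6 libraries, more than PHC1 itself (628). CBX3P9 had 1223 against 4127 for CBX3, SUZ12P 211 against 1541.5 for SUZ12, and HDAC1P2 154 against 2480 for HDAC1. Whether the counting split reads between PHC1, CBX3 or SUZ12 and these copies was not tested, so the values of these genes are uncertain. BMI1 shares 23.4% of its exon bases in GENCODE 29 with another gene on its own strand.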
